A study of Homo sapiens with 3 samples.

Results

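Among HCT116 cells that carried a weak signal of tag8, the hashtag of the irradiated cells, a minority held many transcripts of ISG15. This is a ubiquitin-like protein that interferon induces, and these cells are described here. Cells of the library Mix2 were taken if they had at least 200 detected genes, under 10% mitochondrial UMIs (unique molecular identifiers, which count captured transcripts), 5000 to 20000 gene UMIs, 500 to 3159 counts of tag8 and at least 80% of their tag counts from tag8. Of the 13888 barcodes of Mix2, 11652 passed the gene and mitochondrial limits, 8968 of these the UMI limits, 5530 of these the tag8 count limits and 5209 of these the tag share. A cell with at least 10 ISG15 UMIs was ISG15-high and a cell with 0 to 2 was ISG15-low, which gave 527 ISG15-high cells (10.1% of the 5209), 1811 ISG15-low cells (34.8%) and 2871 cells in between. The whole series held 27282 cells after the gene and mitochondrial limits, 15630 of them in the other library, Mix1. ISG15 chose the classes, so its own levels, 1752 counts per 1000000 UMIs (CPM) in ISG15-high and 172 CPM in ISG15-low cells, are a description and no result.

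Interferons are secreted proteins that bind receptors on the cell surface, and the JAK kinases behind these receptors activate transcription factors. These factors, IRF9 among them, bind a promoter element called ISRE and switch on a shared set of interferon-stimulated genes, whose products sense foreign or misplaced nucleic acid, block translation, degrade RNA and trap viruses at membranes. In cancer cells, irradiation is known to switch on part of this set, through DNA or RNA that reaches sensors in the cytoplasm.

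HCT116 is a human colorectal cancer line, and the genotype given for these cells is p53plus. Mix1 pooled giant cells irradiated with 8 Gy, isolated on day 5 or day 8 and kept until day 10 or day 11. Mix2 pooled such irradiated cells (IR) with non-irradiated cells (NC) and repopulated cells (R), loaded as 10000, 1000 and 1000 cells and marked by the antibody tags tag8, tag6 and tag7. The R cells came from an irradiated culture as well, since the paper describes them as repopulated after 8 Gy. Both classes compared here thus shared the line, the library and the tag, and the 8 Gy dose is read from that tag alone. The isolation and harvest days cannot be told apart within them. Each library is a single sample and cells are not replicates, so no difference below was tested. Bracketed ranges are 95% intervals of the counts by exact methods, which leave out any spread between samples.

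ISG15-high cells were deeper than ISG15-low cells, with medians of 9000 against 7146 UMIs and of 2776 against 2393 genes, and their UMIs summed to 5104374 against 13746823. Mitochondrial UMIs had medians of 6.83% in ISG15-high and 6.54% in ISG15-low cells, and tag8 had medians of 1754 and 1270 counts. Tag6 and tag7 stood at medians of 11 and 4 counts in both classes, as against 11 and 3 counts in the 50037 droplets without cells (200 to 500 gene UMIs), which had a tag8 median of 116. Those droplets held ISG15 at 1714 CPM, which amounts to 0.660 ISG15 UMIs per droplet, beside 17.0 per ISG15-high cell and 1.30 per ISG15-low cell. Mix1 and Mix2 shared 46 cell barcodes, 3 of them with ISG15-high cells. The epithelial markers EPCAM (330 and 344 CPM), KRT8 (1154 and 1050 CPM), KRT18 (1431 and 1326 CPM) and KRT19 (1339 and 1041 CPM) were present in ISG15-high and ISG15-low cells. None of the listed immune, fibroblast, endothelial or erythroid markers reached 20 CPM in either class, and the immune list summed to 7.64 CPM in ISG15-high and 4.44 CPM in ISG15-low cells.

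Beside ISG15, the ISG15-high cells carried more RNA of other interferon-stimulated genes, led by OASL, IFIT1, IFI6 and IFI27, and more RNA of p53 targets such as CDKN1A, TP53I3 and SFN. They carried less of several S phase genes, among them CCNE2 and UHRF1, and of ASNS, the asparagine synthetase. Of 5364 genes with at least 20 CPM in either class, 85 were higher by at least 1.5-fold (1.58%) and 13 lower by as much (0.242%), and the median log2 ratio of all genes was -0.00. A ratio above 1 was found for 2631 of the 5364. The 74 genes of 5 interferon lists had 24 measured members, of which 10 were higher and 0 lower, with a median log2 ratio of 0.50. The p53 list had 24 measured members, of which 11 were higher and 0 lower, with a median log2 ratio of 0.51 and with 24 of 24 above a ratio of 1.

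**Figure D1:**
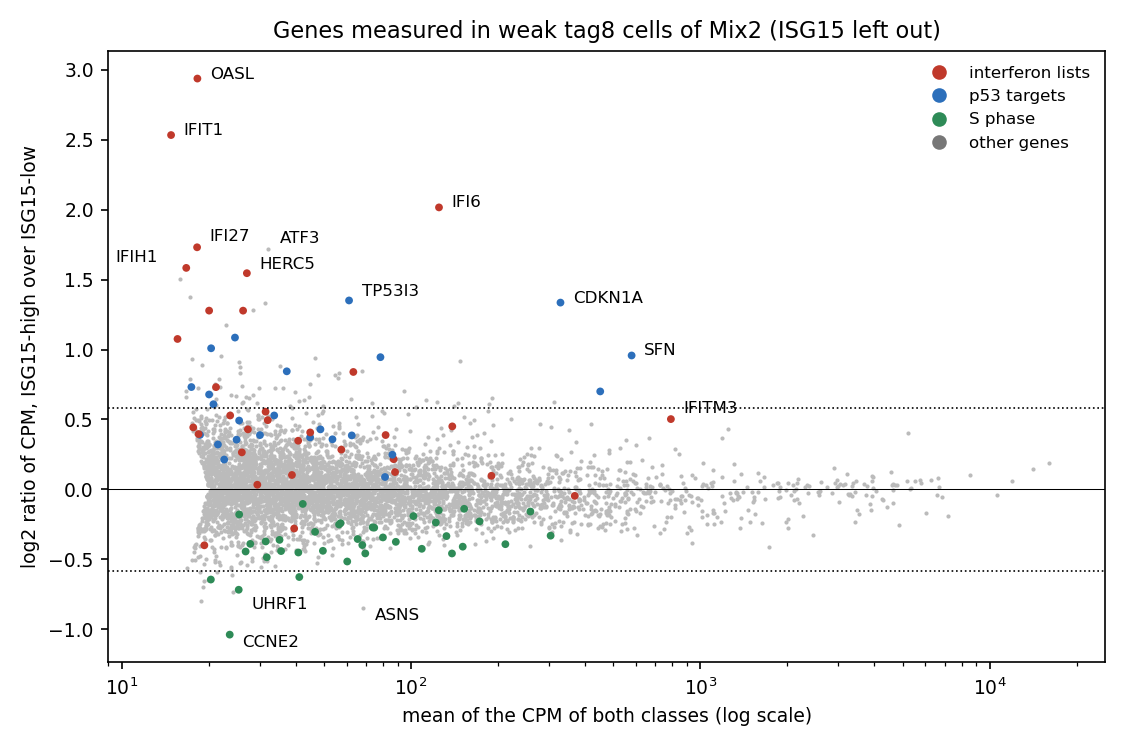
Log2 ratio of CPM, ISG15-high over ISG15-low (y axis), against the mean of the CPM of both classes (x axis, log scale) for the genes measured in weak tag8 cells of Mix2, 1 point a gene, ISG15 left out. Dotted lines mark a ratio of 1.5 either way. OASL (2.94) and IFIT1 (2.53) have the highest log2 ratios, p53 targets lie above 0 and S phase genes below it.

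Among measured genes, the interferon effectors OASL, IFIT1, IFI6 and IFI27 had the highest ratios. As lists, the interferon genes did not differ most. Their median log2 ratio was 0.50, beside 0.51 for p53 targets and 0.82 for the list of keratin-associated proteins, kallikreins and CPA4. IFI6, an interferon-induced protein of mitochondria and the endoplasmic reticulum, stood at 200.4 CPM in ISG15-high cells and at 49.5 CPM in ISG15-low cells, a ratio of 4.05 (3.67 to 4.46). An IFI6 UMI was present in 70.4% of ISG15-high and 28.5% of ISG15-low cells, whereas the droplets without cells would add 0.0301 IFI6 UMIs per cell. IFI6 was therefore both frequent and spread over the class, and its 10 richest cells held 11.3% of its UMIs. OASL, a relative of the 2-5A synthetases that enhances RNA sensing, stood at 32.3 CPM in ISG15-high and 4.22 CPM in ISG15-low cells, a ratio of 7.66 (5.65 to 10.52). Its UMIs were found in 9.87% of ISG15-high and 3.15% of ISG15-low cells, and 10 ISG15-high cells held 64.8% of them. OASL thus rested on few cells, and without the 11 cells of 50 or more ISG15 UMIs its ratio was 4.19, against 4.08 for IFI6.

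IFIT1, which binds viral RNA that lacks a host cap mark and keeps it from being translated, stood at 25.3 CPM in ISG15-high and 4.36 CPM in ISG15-low cells, a ratio of 5.79 (4.23 to 8.00). Its partners IFIT2 (59 UMIs in ISG15-high and 16 in ISG15-low cells) and IFIT3 (80 and 35 UMIs) were under the limit of 20 CPM and had ratios of 9.93 (5.64 to 18.5) and 6.16 (4.09 to 9.44). IFI27, an interferon-induced mitochondrial protein, stood at 28.0 CPM in ISG15-high and 8.44 CPM in ISG15-low cells, a ratio of 3.32 (2.58 to 4.28). Tetherin (BST2), which holds budding virions at the membrane, had 16.8 CPM in ISG15-high and 4.44 CPM in ISG15-low cells, a ratio of 3.80 (2.70 to 5.36). IFI6, IFI27 and BST2, the markers named with ISG15 for these cells, were chosen with earlier results of these data known, so their levels are a description. All were higher, though BST2 was under the level limit. Not all membrane effectors differed so. IFITM3, which blocks viral fusion, had 928 CPM in ISG15-high and 655 CPM in ISG15-low cells (ratio 1.42, 1.37 to 1.47), while IFITM2 had a ratio of 1.07 and LY6E, another surface protein induced by interferon, of 0.968. IFITM2 and IFITM3 are near-identical copies, so their shares of the reads are uncertain.

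The enzymes that attach ISG15 to proteins differed unequally. HERC5, the main human ligase for ISG15, had 40.4 CPM in ISG15-high and 13.8 CPM in ISG15-low cells, a ratio of 2.92 (2.39 to 3.58). The conjugating enzyme UBE2L6 had 19.2 CPM in ISG15-high and 15.7 CPM in ISG15-low cells, with an interval of the ratio (0.952 to 1.56) that includes 1. USP18, which removes ISG15 from proteins and damps the receptor, had 58 UMIs in ISG15-high and 88 in ISG15-low cells, a ratio of 1.78 (1.25 to 2.50). Among the remaining effectors SAMD9 (2.43), SP110 (2.43), IFI35 (2.11) and OAS3 (1.66) passed the limit, and OAS1, with 26 UMIs in ISG15-high and 7 in ISG15-low cells, had a ratio of 10.0 (4.23 to 27.3). MX1 had 2 UMIs in ISG15-high and 3 in ISG15-low cells, and OAS2 had 0 UMIs in both classes.

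Upstream of these effectors, transcripts of interferons were almost not detected. IFNB1, the type I interferon of epithelial cells, had 0 UMIs in both classes, and a count of 0 allows up to 3 as a 1-sided 95% limit. IFNL1, a type III interferon, had 8 UMIs in 5 ISG15-high cells and 2 UMIs in 2 ISG15-low cells, a ratio of 10.8 with a wide interval (2.15 to 104). IFNAR1, a chain of the type I receptor, had 33.5 CPM in ISG15-high and 33.6 CPM in ISG15-low cells, and the kinase JAK1 had 44.9 and 39.9 CPM, so receptors and kinases were at like levels in both classes. IRF7, which amplifies interferon production, had few UMIs, with 52 in ISG15-high and 50 in ISG15-low cells (ratio 2.80, 1.86 to 4.21). Of 6 measured sensors of nucleic acid, 1 was higher. This was IFIH1 (MDA5), a sensor of long double-stranded RNA, with 25.1 CPM in ISG15-high and 8.37 CPM in ISG15-low cells (ratio 3.0, 2.31 to 3.89). The related sensor DDX58 (RIG-I) had 71 UMIs in ISG15-high and 61 in ISG15-low cells, a ratio of 3.13 (2.19 to 4.49). The chemokine CXCL10 had 20 UMIs in ISG15-high and 10 in ISG15-low cells, with 90% of the UMIs of the ISG15-high class in 10 cells.

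Promoter sequences show a feature that the rule did not use. The motif searched was the core of the ISRE, written as GAAA, 2 bases of any kind and GAAA again, on both strands and with overlapping matches counted, in the 250 bases before to 50 bases after each start in RefSeq (GRCh38.p14), where 72 of the 85 higher genes and 4360 of the 5364 measured genes had an entry. It was present in 9 of these 72 promoters (12.5%), against 119 of the 4360 (2.73%) and 996 of all 27305 promoters (3.65%). The 9 were BBC3, HERC5, IFI27, IFI6, IFIH1, IFIT1, MVP, OAS3 and SAMD9. Among measured genes of the 5 interferon lists the motif was present in 12 of the 18 with an entry (66.7%), and among the higher ones in 6 of 8 (75%). It was thus frequent in interferon genes both past and not past the limit. Among higher genes on no interferon list the motif was present in 2 of 63 (3.17%), near the share of all measured genes, and among the 10 lower genes with an entry in 0. The 250 bases upstream of ISG15 (chr1:1013247-1013496, plus strand) and of IFI6 (chr1:27672193-27672442, minus strand) are shown because ISG15 chose the cells and IFI6 was present in more ISG15-high cells than the other interferon effectors described above as past the limit. Capitals mark the motif on either strand, which begins 113 bases before the start of ISG15, where 2 matches overlap, and lies at 3 places before IFI6.
ISG15: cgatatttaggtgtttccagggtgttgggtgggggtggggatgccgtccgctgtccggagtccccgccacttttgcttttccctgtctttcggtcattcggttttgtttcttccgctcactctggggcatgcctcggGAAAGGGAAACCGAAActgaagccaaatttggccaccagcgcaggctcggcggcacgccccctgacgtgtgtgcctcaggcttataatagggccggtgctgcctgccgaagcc
IFI6: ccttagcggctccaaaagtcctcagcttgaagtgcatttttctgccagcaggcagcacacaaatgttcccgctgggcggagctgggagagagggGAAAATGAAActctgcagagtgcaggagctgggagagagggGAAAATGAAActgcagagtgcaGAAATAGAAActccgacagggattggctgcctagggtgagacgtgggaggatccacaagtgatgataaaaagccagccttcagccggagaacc

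For 4 further effectors and IFIH1, 30 bases around the most distant match are given in the direction of the gene, so that the spacing of the repeats can be compared. IFIT1 lies on chromosome 10 (chr10:89392502-89392531, plus strand), IFI27 on chromosome 14 (chr14:94110623-94110652, plus), HERC5 on chromosome 4 (chr4:88456989-88457018, plus), OAS3 on chromosome 12 (chr12:112938326-112938355, plus) and IFIH1 on chromosome 2 (chr2:162318819-162318848, minus). The matches begin between 108 bases (IFI27) and 159 bases (IFIH1) before the start. In IFIT1, IFI27, HERC5 and IFIH1 the first match reads TTTC on the strand of the gene, and in IFIT1 and IFI27 a second match follows after a short gap.
IFIT1: tttagTTTCACTTTCcccTTTCGGTTTCcc
IFI27: tgcagTTTCGGTTTCctgGAAAATGAAAcc
HERC5: tacagTTTCCTTTTCCTTTTCgattccgcc
OAS3: gaaacGAAACTGAAAgcagggaatttccca
IFIH1: ttcgcTTTCCTTTTCTGTTTCccgcggtgt

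Targets of p53 were higher together. CDKN1A, which encodes p21 and halts the cycle, had 471 CPM in ISG15-high and 187 CPM in ISG15-low cells, a ratio of 2.52 (2.39 to 2.67). Its UMIs were present in 76.9% of ISG15-high and 62.8% of ISG15-low cells. SFN (14-3-3 sigma), which keeps cells in G2, had 764 CPM in ISG15-high and 394 CPM in ISG15-low cells, a ratio of 1.94 (1.86 to 2.02). TP53I3, an oxidoreductase, had 87.8 CPM in ISG15-high and 34.4 CPM in ISG15-low cells, a ratio of 2.55 (2.24 to 2.91). The secreted stress factor GDF15 had 558 and 344 CPM (ratio 1.63), the DNA damage gene GADD45A 103 and 53.6 CPM (1.93), and BBC3 (PUMA), which promotes apoptosis, 33.5 and 15.8 CPM (2.12). PLK2, PHLDA3, BTG2, PPM1D and ZMAT3 completed the 11. MDM2, the ligase that p53 induces against itself, had 55.8 CPM in ISG15-high and 41.5 CPM in ISG15-low cells, and its ratio of 1.35 (1.16 to 1.56) was under the limit. CDKN1A stood at 723 CPM and SFN at 1079 CPM in the droplets without cells, above either class, and subtracting that background gave ratios of 2.92 and 2.10. GDF15 (1069 CPM), TP53I3 (196 CPM) and BBC3 (49.3 CPM) were also above both classes in these droplets, while GADD45A (80.8 CPM) lay between the classes.

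S phase genes were lower in ISG15-high cells, and genes of G2 and M phases were not. All 37 measured S phase genes had a ratio under 1, 4 of them under the limit, and their median log2 ratio was -0.37. Cyclin E2 (CCNE2), which drives entry into S phase, had 15.5 CPM in ISG15-high and 31.8 CPM in ISG15-low cells, a ratio of 0.487 (0.378 to 0.620). UHRF1, which maintains DNA methylation through replication, had a ratio of 0.608 (0.483 to 0.759), DTL, a substrate receptor of a ubiquitin ligase that acts at replication, of 0.640 (0.496 to 0.817), and CDCA7 of 0.648 (0.543 to 0.769). The 43 measured genes of G2 and M phases had a median log2 ratio of -0.00 and none past the limit, and MKI67, a marker of cycling cells, had 280 CPM in ISG15-high and 304 CPM in ISG15-low cells. ASNS, a target of the amino acid stress factor ATF4, had 48.6 CPM in ISG15-high and 87.4 CPM in ISG15-low cells, a ratio of 0.556 (0.483 to 0.638). Of the 14 measured genes of the ATF4 list, 4 had a ratio above 1, 2 were past the limit upward and 1, ASNS, downward, and the median log2 ratio was -0.22. ATF3, a member of this list, was higher, with 49 CPM in ISG15-high and 14.9 CPM in ISG15-low cells (ratio 3.28, 2.72 to 3.97), with 57.2% of its ISG15-high UMIs in 10 cells. The droplets without cells held 66.9 CPM of ATF3, above both classes.

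Genes of antigen presentation were higher by less than the limit. HLA-B (260 and 183 CPM in ISG15-high and ISG15-low cells) and HLA-C (223 and 162 CPM) had ratios of 1.42 and 1.38, and their reads can be shared among similar genes. B2M, the common light chain, had a ratio of 1.28, and of 12 measured members of the list 10 had a ratio above 1, with a median log2 ratio of 0.33. Keratin-associated proteins and kallikreins, products of differentiating epithelia, were higher in 5 of 8 measured members of their list, with a median log2 ratio of 0.82. KRTAP3-1 had 23.5 CPM in ISG15-high and 8.29 CPM in ISG15-low cells (ratio 2.83, 2.18 to 3.70), KRTAP2-3 44.7 and 17.7 CPM (2.52) and the protease KLK5 24.9 and 9.60 CPM (2.59). The droplets without cells held 129 CPM of KRTAP3-1, 170 CPM of KRTAP2-3 and 51.9 CPM of KLK5, each above both classes. With this background subtracted the ratio of KRTAP3-1 was 10.4. Its classes held only 120 and 114 UMIs before subtraction, and each cell was taken to hold the mean background of a droplet. The value of 10.4 is thus uncertain and has no interval. Only parts of the study's gene panels were listed, 4 genes of its maintenance panel and 7 of its budding panel, of which 2 and 1 were higher and 0 lower. The higher ones were CST3 (cystatin C, 380 and 246 CPM, ratio 1.54), SELENOM (149 and 96.8 CPM, 1.54) and ASS1, which makes argininosuccinate (87.2 and 48.5 CPM, 1.80). SNCG (gamma-synuclein) had 113 CPM in ISG15-high and 84.8 CPM in ISG15-low cells (1.34). The droplets without cells held 856 CPM of CST3 and 243 CPM of SELENOM, above both classes. These panels were chosen by the study on cells of the same line. Ribosomal proteins (81 measured, median log2 ratio 0.01) and ESCRT genes, which cut membranes (16 measured, 0.11), had none past the limit.

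The other genes did not follow ISG15 alike when the cells were divided more finely by ISG15 UMIs. IFI6 had 44.6, 50.4, 69.5, 111, 190.1 and 241 CPM in cells with 0, 1 to 2, 3 to 5, 6 to 9, 10 to 19 and 20 or more ISG15 UMIs (292, 1519, 1970, 901, 432 and 95 cells). It was higher with each class. OASL had 4.27, 4.21, 5.12, 6.44, 9.32 and 124 CPM in these classes, so most of its difference lay in the last one. IFIT1 (13.5 against 72.0 CPM in the last 2 classes) and HERC5 (24.0 against 105 CPM) had the same shape. CDKN1A had 189.8, 186, 203, 265, 395 and 770.1 CPM, at a like level up to 5 ISG15 UMIs and higher from there on. ASNS had 84.0, 88.1, 74.4, 64.4, 51.5 and 37.0 CPM, and MKI67, between 292 and 306 CPM up to 19 ISG15 UMIs, had 209 CPM in the last class. Neither limit of the rule marked a step in IFI6, which had 150 CPM in the 115 cells with 10 ISG15 UMIs and 151 CPM in the 134 cells with 9, and 61.1 CPM in the 831 cells with 3 and 53 CPM in the 839 cells with 2. CDKN1A had 456 CPM in the cells with 10 and 271 CPM in those with 9.

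**Figure D2:**
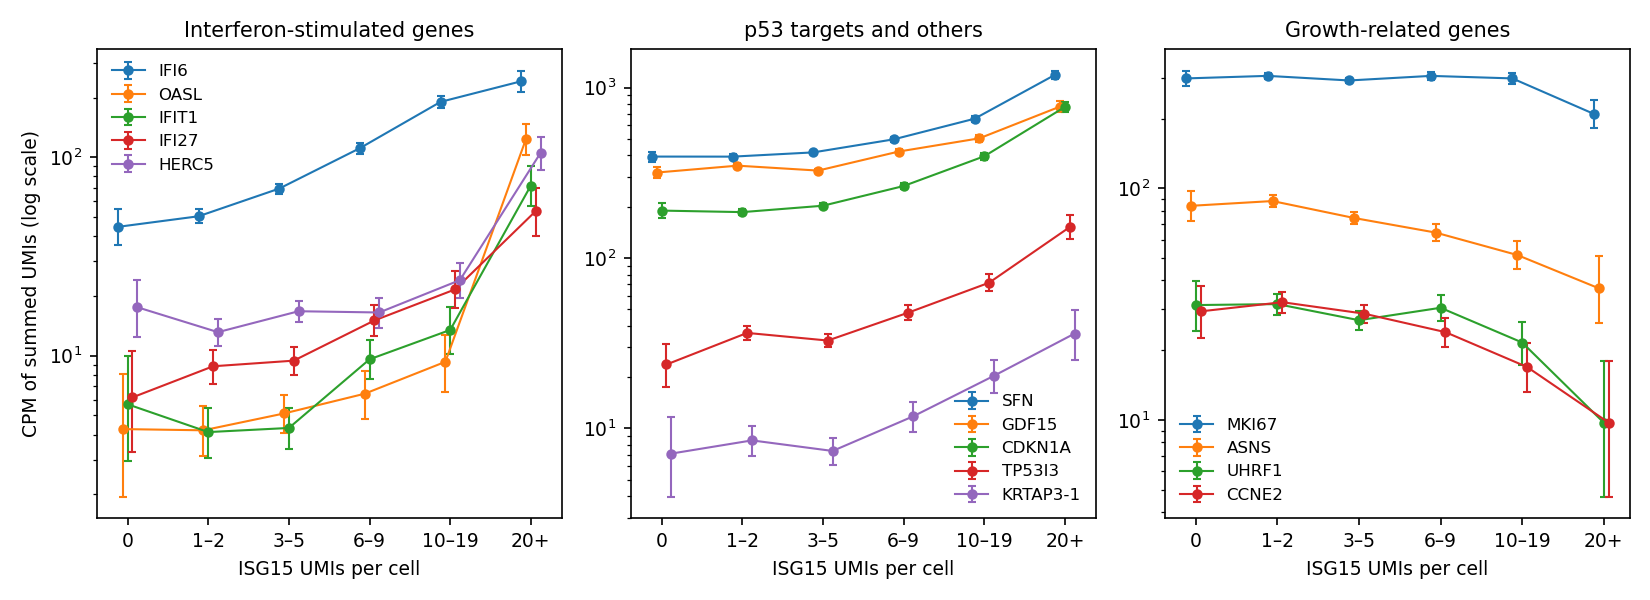
CPM of summed UMIs (y axis, log scale) of single genes by the number of ISG15 UMIs per cell (x axis) in weak tag8 cells of Mix2, with exact 95% Poisson intervals as bars. IFI6 is higher in each class from 0 to 20 or more ISG15 UMIs (44.6 to 241 CPM), OASL stays under 10 CPM up to 19 and has 124 CPM in the last class, and ASNS goes down to 37.0 CPM.

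Single ISG15-high cells differed in how much of the interferon set they showed. From the interferon and sensor lists, 10 genes that were past the limit (OASL, IFIT1, IFI6, IFI27, IFIH1, HERC5, SAMD9, SP110, IFI35 and OAS3) were counted per cell. This set was chosen after the ratios were seen and is a description. Cells with 50 or more ISG15 UMIs had a median of 5 of the 10 (11 cells), cells with 20 to 49 a median of 3 (84 cells), cells with 10 to 19 a median of 2 (432 cells) and cells with 0 ISG15 UMIs a median of 1 (292 cells). At 5000 UMIs per cell the means were 3.36, 2.13, 1.40 and 0.685 genes in the same order, and thus still differed at equal depth. None of the 10 was seen in 44 of the 432 cells with 10 to 19 ISG15 UMIs (10.2%, 7.5 to 13.4) and in 120 of the 292 cells with 0 (41.1%, 35.4 to 47.0). At 5000 UMIs per cell these were 105 cells (24.3%) and 150 cells (51.4%), so the shares lay closer together at equal depth.

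The richest cells were unlike each other. The cell with most ISG15, 256 of 16757 UMIs, had 5 OASL UMIs and 0 of IFI6, IFIT1, IFIT2, IFIT3, IFI27 and HERC5. The next, with 228 ISG15 UMIs of 11540, had 3 IFI6, 8 IFIT1, 5 IFIT2, 6 IFIT3, 9 OASL and 2 IFNL1 UMIs. A cell with 79 ISG15 UMIs of 6565 had 9 IFIT1, 16 OASL and 13 HERC5 UMIs, and a cell with 72 ISG15 UMIs of 9537 had 0 of all of these. ISG15 thus stood high both with and without its companions. Among the 371 ISG15-high cells with IFI6, OASL was seen in 39, and among the 52 with OASL, IFI6 was seen in 39 and HERC5 in 26. Cells with IFI27 (78) and cells with OASL (52) had 6 cells in common. Of all 527 ISG15-high cells, 70.4% held IFI6, 9.87% OASL, 14.8% IFI27 and 21.1% HERC5. The overlaps are to be read against these shares, and whether they differ from them was not tested. MKI67 was at 0 in 9 of the 11 cells with 50 or more ISG15 UMIs, with 1 and 6 UMIs in the others.

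**Figure D3:**
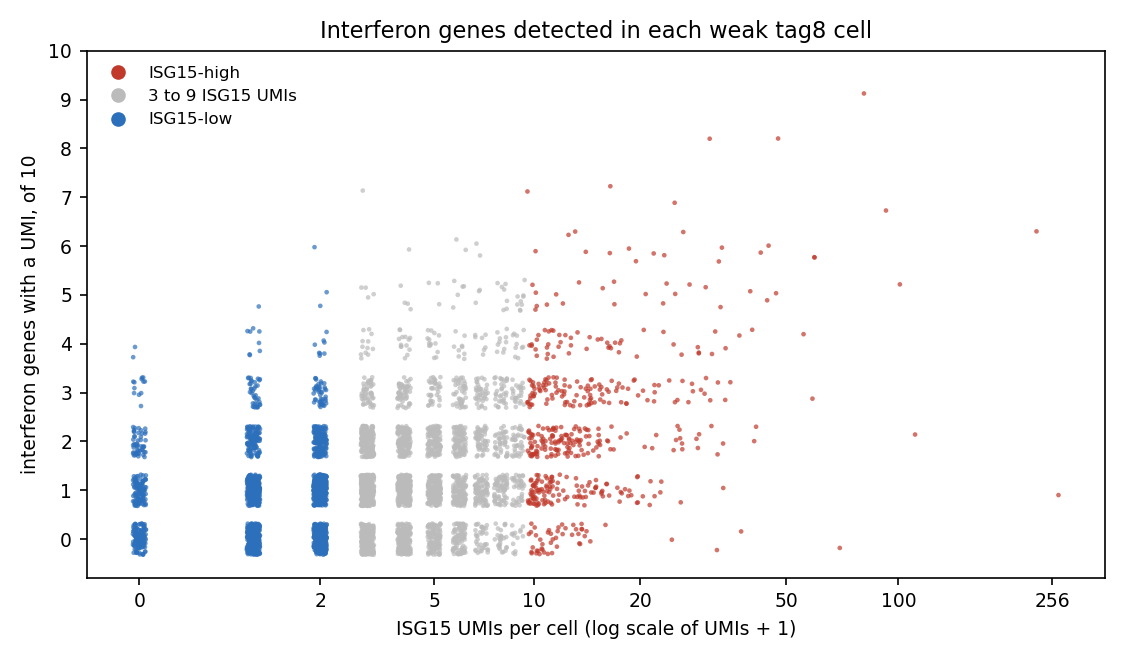
Number of 10 interferon genes with a UMI (y axis, points spread at random within each whole number) against ISG15 UMIs per cell (x axis, log scale of UMIs + 1) for the 5209 weak tag8 cells of Mix2, 1 point a cell. Cells with 50 or more ISG15 UMIs have a median of 5 of the genes, cells with 10 to 19 a median of 2, and the cell with 256 ISG15 UMIs has 1.

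A limit in UMIs favours deep cells, so the share of ISG15-high cells was set against depth. It was 6.49% (5.53 to 7.56) among the 2342 cells with 5000 to under 7500 UMIs and 37.2% (28.6 to 46.4) among the 121 cells with 15000 or more, whereas ISG15 stood at 594 and 739 CPM in these cells. IFI6 was higher in ISG15-high cells in each of the 5 depth bins. In cells under 7500 UMIs it had 309 CPM in ISG15-high and 56.1 CPM in ISG15-low cells, a ratio of 5.50 (4.71 to 6.42). In cells of 7500 to under 10000 UMIs the ratio was 5.05 (4.21 to 6.06), and in cells of 10000 to under 12500 UMIs it was 3.91 (3.05 to 5.04). It was 4.04 (2.32 to 7.61) from there to under 15000 UMIs and 4.03 (1.64 to 12.8) in the deepest cells, where 45 ISG15-high cells stood against 14 ISG15-low cells. In these deepest cells the intervals of OASL (ratio 3.26, 0.796 to 28.6), IFIT1 (1.24, 0.123 to 61.1) and HERC5 (1.24, 0.400 to 5.10) included 1, and so did that of HERC5 in the bin below (2.26, 0.927 to 6.65), so no difference was detectable there. With each cell thinned to 5000 UMIs, OASL (7.45), IFIT1 (6.12), IFI6 (4.19), CDKN1A (2.32), CCNE2 (0.586) and ASNS (0.525) kept their side and stayed past the limit.

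Interferon genes and p53 targets could be separated by the state of the cycle. Weak tag8 cells were divided into tertiles by the summed UMIs of G2 and M genes among 5000 UMIs, at 23 and 37. The ratio of IFI6 was 3.33 (2.82 to 3.94), 4.23 (3.51 to 5.10) and 4.52 (3.83 to 5.34) in the lowest, middle and highest tertile, and the interferon lists had median log2 ratios of 0.60, 0.43 and 0.62. The ratio of CDKN1A was 3.25 (3.02 to 3.51), 1.66 (1.46 to 1.89) and 1.10 (0.946 to 1.27), and that of SFN was 2.81 (2.65 to 2.98), 1.29 (1.17 to 1.41) and 1.0 (0.913 to 1.10). In the highest tertile, then, 183 ISG15-high cells had more IFI6 than 545 ISG15-low cells, while the intervals of CDKN1A and SFN included 1. KRTAP3-1 (6.80, 1.08 and 1.21) and ATF3 (4.27, 1.74 and 1.03) went with the p53 targets, and so did OASL in part (13.4, 2.86 and 2.14). CCNE2 had ratios of 0.293, 0.691 and 0.929. The p53 list as a whole had median log2 ratios of 0.77, 0.34 and 0.03.

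**Figure D4:**
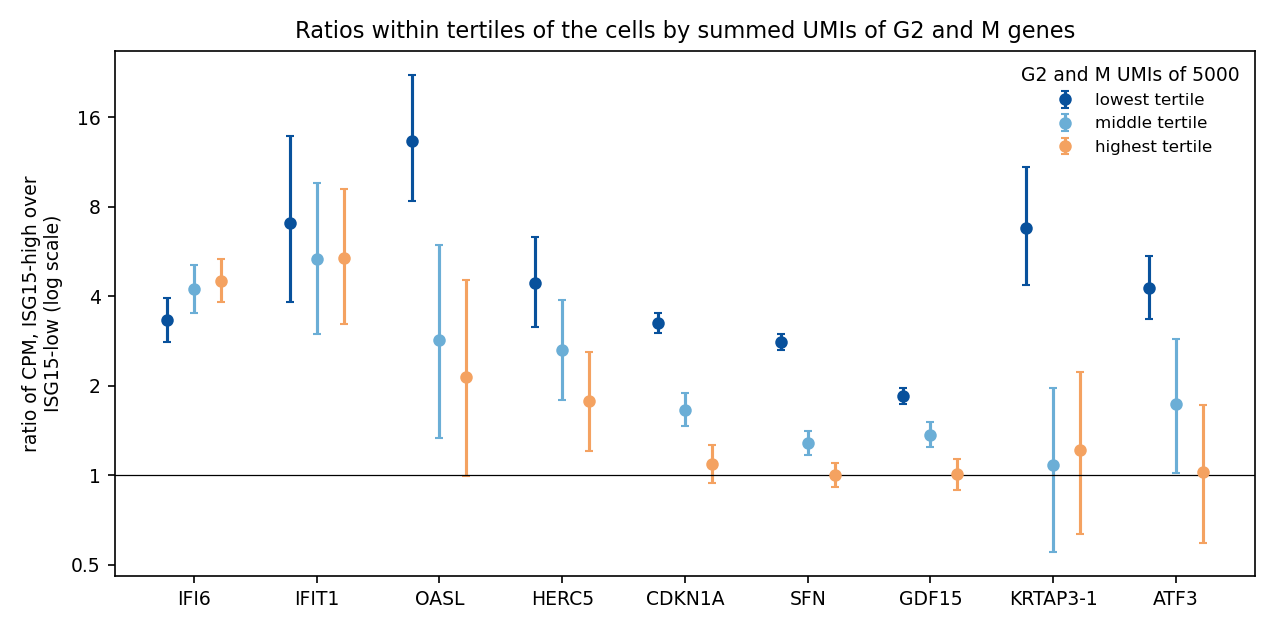
Ratio of CPM, ISG15-high over ISG15-low (y axis, log scale), within tertiles of the weak tag8 cells of Mix2 by summed UMIs of G2 and M genes (colours, at 5000 UMIs per cell) for 9 genes (x axis), with exact 95% intervals of counting error as bars. IFI6 stays between 3.33 and 4.52, while CDKN1A goes from 3.25 in the lowest to 1.10 in the highest tertile.

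At 5000 UMIs per cell, a count of 5 or more ISG15 UMIs was met by 20.6% (18.7 to 22.5) of the lowest, 15.0% (13.4 to 16.8) of the middle and 17.1% (15.3 to 19) of the highest tertile. By CDKN1A, the same count was met by 15.9% (14.4 to 17.4) of the 2383 cells with 0, 16.4% (14.6 to 18.3) of the 1557 with 1, 18.4% (16 to 21.1) of the 933 with 2 to 3 and 32.7% (27.7 to 38.0) of the 336 with 4 or more CDKN1A UMIs. ISG15-rich cells were thus more frequent at the top of CDKN1A but also present among cells with 0 CDKN1A UMIs of 5000, where the ratio of IFI6 was 4.39 (3.78 to 5.11). At full depth these cells did hold CDKN1A, with 66 CPM in ISG15-high and 37.8 CPM in ISG15-low cells, a ratio of 1.75 (1.39 to 2.17).

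The same limits on ISG15 were applied to cells that the rule did not use. In Mix1, 2038 of 9373 cells were ISG15-high (21.7%) and 1797 ISG15-low, and in cells of Mix2 with more than 3159 tag8 counts 775 of 1904 were ISG15-high (40.7%) and 218 ISG15-low. Among NC cells 6 of 699 (0.858%, 0.316 to 1.86) and among R cells 7 of 532 (1.32%, 0.531 to 2.69) were ISG15-high, too few for their other genes to be read. At 5000 UMIs per cell the shares with 5 or more ISG15 UMIs were 17.3% in weak tag8, 37.4% in strong tag8, 21.6% in Mix1, 6.02% in R and 4.43% in NC cells. The level over all cells followed the same order, with 580 CPM in weak tag8, 1098 in strong tag8, 668 in Mix1, 380 in R and 312 CPM in NC cells. In ISG15-low cells the p53 list summed to 1649 CPM in weak tag8, 1458 in NC, 1626 in R and 3449 in strong tag8 cells. CDKN1A had 187, 170, 194 and 747 CPM in the same order, so ISG15-low weak tag8 cells lay nearer to NC and R than to strong tag8 cells. Whether tag8 marks the dose of each weak tag8 cell was not tested.

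Most of the 85 genes were also higher with ISG15 in Mix1. Depth differed there too, with medians of 13265 UMIs in ISG15-high and 8964 UMIs in ISG15-low cells. In strong tag8 cells these medians were 13029 and 9373.5 UMIs, beside 9000 and 7146 UMIs in weak tag8 cells. The ratios in Mix1 and in strong tag8 cells were not computed at equal depth. Of the 81 with at least 20 CPM in Mix1, 81 had a ratio above 1 and 68 were past the limit. Of all 5359 genes measured in Mix1, 2294 had a ratio above 1 and 4.48% were higher by that limit. Of 11 measured lower genes 11 had a ratio under 1 and 5 were past the limit (5.54% of all). OASL had 25.9 CPM in ISG15-high and 4.28 CPM in ISG15-low cells of Mix1, a ratio of 6.05 (4.74 to 7.83), and IFIT1 had 24.3 and 4.51 CPM, a ratio of 5.38 (4.24 to 6.92). IFI6 had 168 and 57.7 CPM, a ratio of 2.92, and HERC5 43.8 and 25.6 CPM, a ratio of 1.71. KRTAP3-1 differed more than in weak tag8 cells, with 124 CPM in ISG15-high and 18.1 CPM in ISG15-low cells of Mix1, a ratio of 6.87. OAS3 was under the level limit in Mix1, with 12.9 and 13.6 CPM. In strong tag8 cells, 79 of 82 measured genes had a ratio above 1 and 35 were past the limit (4.14% of all genes), and DDIT3, IFT43 and UCA1 were on the other side. Of all 5290 genes measured in strong tag8 cells, 2871 had a ratio above 1. Of the 13 lower genes 2 were measured there, both with a ratio under 1 and 0 past the limit (2.4% of all genes).

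Genes of G2 and M phases had unlike ratios in the populations. Their median log2 ratio was -0.00 in weak tag8 cells, -0.79 in strong tag8 cells and -0.84 in Mix1, where 37 of 42 measured members were lower in ISG15-high than in ISG15-low cells. S phase genes had median log2 ratios of -0.37, -0.42 and -0.86 in the same order, the interferon lists 0.50, 0.71 and 0.61 and the p53 list 0.51, 0.27 and 0.66. These differences between populations were not tested, and library and preparation cannot be told apart between Mix1 and Mix2. The classes also lay further apart in depth in Mix1 and strong tag8 cells, and these medians were not taken at equal depth. Within tertiles of Mix1 by the same G2 and M genes, divided at 10 and 26 UMIs of 5000, IFI6 had ratios of 2.61, 2.88 and 3.46 from the lowest to the highest, and CDKN1A of 1.29, 2.43 and 1.28, so the pattern of CDKN1A in weak tag8 cells was not seen there. In strong tag8 cells, divided at 6 and 17 UMIs, IFI6 had ratios of 7.90, 6.16 and 2.46 and CDKN1A of 1.18, 1.13 and 1.81.

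**Figure D5:**
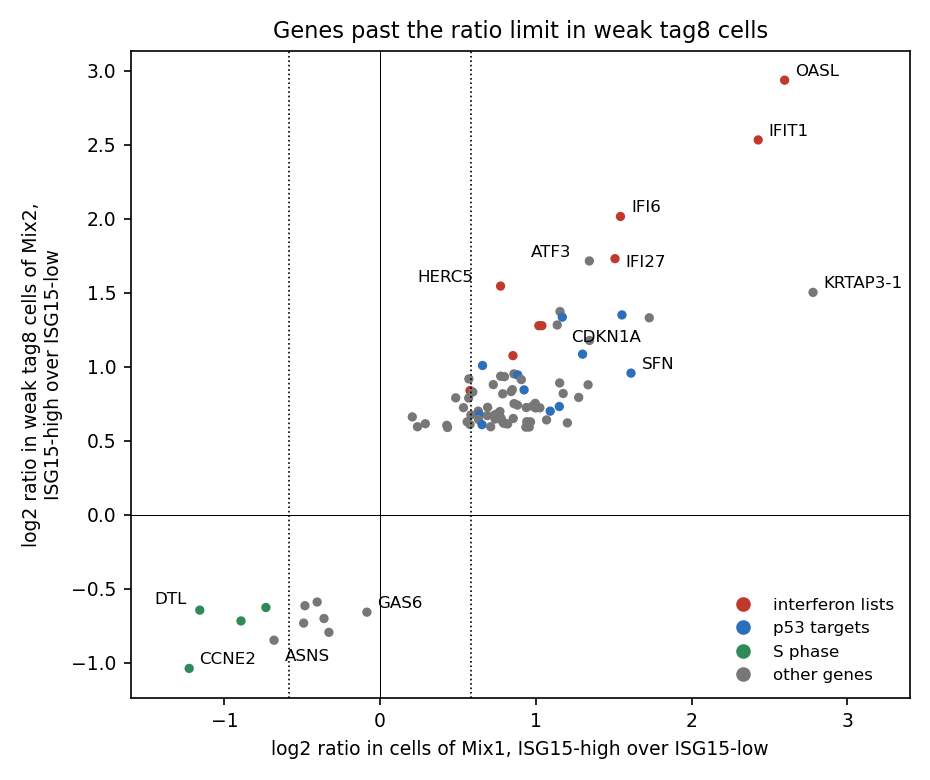
Log2 ratio of CPM, ISG15-high over ISG15-low, in weak tag8 cells of Mix2 (y axis) against the same in cells of Mix1 (x axis) for the genes past the limit in weak tag8 cells that have at least 20 CPM in Mix1. Dotted lines mark a ratio of 1.5 in Mix1, and all 81 higher genes shown lie right of 0.

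By position, the gene next to ISG15 was also among the 85. HES4, a transcriptional repressor of the Notch pathway that lies beside ISG15 on the opposite strand (GENCODE 44 on GRCh38, chr1:998962-1000172, with ISG15 at chr1:1001138-1014540), had 193 CPM in ISG15-high and 102 CPM in ISG15-low cells, a ratio of 1.89 (1.74 to 2.05). The 11 other measured genes within 500 kb had ratios of 0.860 (ATAD3B) to 1.19 (DVL1). HES4 had a ratio of 1.48 in Mix1 and 1.41 in strong tag8 cells, both under the limit. With the interferon lists left out, the share of UMIs per chromosome differed little, with ratios of 0.956 (chromosome 2) to 1.05 (chromosome 11) and of 1.03 for chromosome 1.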

How the data were processed

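The deposited values were UMI counts per gene and cell barcode, whole numbers that the authors had not normalized, for 33538 genes of GRCh38 and, in Mix2, 3 tags. The file headers name Cell Ranger 3.1.0 (Mix1) and 3.0.1 (Mix2). The submitters' processing notes also name Seurat 2.3. An unfiltered matrix of Mix2, identical over the cell barcodes, supplied the droplets without cells and was not counted as a sample.

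Cells were kept and classed as stated above. UMIs were summed per class and scaled to counts per 1000000 UMIs (CPM). A gene was measured at 20 CPM in either class and counted as past the limit at a 1.5-fold ratio in either direction. Levels were given Poisson, ratios conditional binomial and shares Clopper-Pearson intervals (all exact, 95%), computed with scipy 1.17.1, numpy 2.4.6 and pandas 2.3.3 in Python 3.11.15. Cells and lists were chosen with earlier results of these data known. Named genes were fixed genes, the 10 highest and 10 lowest ratios from 50 CPM, and up to 4 members of each of 29 lists. Other named genes, the 10 genes counted per cell, the single cells, and the tertiles of Mix1 and strong tag8 cells were chosen after their values were seen. Thinning drew UMIs without replacement (seed 1). No doublet caller was run. Droplets in which tag6 or tag7 made up much of the tags fell out with the tag share, and droplets of more than 1 tag8 cell cannot be seen. The ratio was tested on simulated data. TMM factors came from edgeR 4.0.16. With 1 library, p-values were not computed. Some genes of the lists are not reported here by name.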

Additional observations from a re-analysis of the deposited data

Results flagged for a closer look

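ISG15 stood at 1714 CPM (1695 to 1732) in the 50037 droplets without cells of Mix2, which belong to neither class. It had 1752 CPM in ISG15-high and 172 CPM in ISG15-low weak tag8 cells and 312 CPM in the non-irradiated cells. It was singled out because a signal in material outside the main measurement exceeded its level in the non-irradiated cells. The part of this background in the ISG15 counts of single cells was not tested. It amounts to 0.660 UMIs per droplet, under the limit of 10 but not small beside the 1.30 ISG15 UMIs per ISG15-low cell. Whether it moved cells between the ISG15-low class and the cells in between was not tested.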

How the results depend on the processing

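No paired analysis was possible because each library is a single sample. Besides 17 planned settings, leaving out the cells with 50 or more ISG15 UMIs was chosen after seeing the data. Over 109 genes and 18 settings, 1675 ratios stayed within their counting interval, 287 moved and 0 changed side. The medians of the interferon and p53 lists moved with a high limit of 20 ISG15 UMIs (0.85 and 0.89), and that of the p53 list with under 5% mitochondrial UMIs (0.82). The counts of genes, 85 higher and 13 lower, depended on the settings. Higher genes numbered 145 with the total taken without mitochondrial and ribosomal genes, 531 with a high limit of 20 (95 cells), 173 with ISG15-low cells at 0 UMIs, 667 under 5% mitochondrial UMIs (63 and 201 cells), and 206, 29 and 2393 with a minimum of 10 CPM, of 50 CPM and of 1 UMI in each class. Lower genes under these numbered 17, 400, 64, 739, 33, 1 and 753, and 24 with TMM factors, which gave 64 higher genes and moved the median of all genes to -0.07. They numbered 33 in thinned cells, 40 with ISG15-low cells weighted to the depth of ISG15-high cells, 20 with ISG15 limits per 10000 UMIs and 35 with at most 10000 UMIs per cell. All 85 higher genes were kept with the other total, and 67 of 85 in thinned cells. Depth limits the genes under 20 CPM, where ratios rest on few UMIs, and 1 library gives no spread between samples.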
